A study of Drosophila melanogaster with 6 samples.

Results

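The neuropeptide receptor genes of Drosophila melanogaster olfactory projection neurons are described here, in adult neurons against developing ones. The genes were given by name, 36 in all, and all 36 were found among the 14138 genes of the deposited table. Members were taken by symbol alone, from a list drawn up with earlier results of these data known. The series holds 6 RNA-seq libraries of olfactory projection neurons, 3 from adults of 5 days and 3 from pupae at 36 h after puparium formation. Flies of both groups were untreated and kept at one temperature, and the labels give no genotype beyond a GFP marker used for sorting. About 2000 sorted cells went into each library, and SMART-seq2, which amplifies cDNA over whole transcripts, was used to make it. The labels used here name neither the GFP driver nor the sex of the flies.

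Olfactory projection neurons receive odour signals in the antennal lobe and carry them to the mushroom body and lateral horn. Neuropeptides are short secreted signals, cut from larger precursors, that act over a wider range than fast transmitters. Nearly all of their receptors are G protein-coupled receptors, which cross the membrane several times and act through cyclic AMP, calcium or ion channels. In the antennal lobe, peptides such as tachykinin and short neuropeptide F are known to tune the output of olfactory receptor neurons, in part with feeding state.

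Levels are in CPM, a read count scaled to a common library total. Reads recovered from these values numbered 32764616 to 42217764 in adult and 18602628 to 34542641 in development libraries. Whether replicates are separate groups of flies is not in the labels, and the p-values reflect library-to-library spread alone, which may be technical. Counting noise did not account for the difference between replicates: chi-square divided by its degrees of freedom was 44.2 to 63.7 over adult pairs. Development replicate 1 stood apart at 60.5 and 74.0 in its pairs, against 18.1 for the other development pair. The projection neuron factors acj6, Oaz, C15 and kn were all detected, and the 9-gene projection neuron list summed to 1276 to 1451 CPM in adult and 1779 to 2235 CPM in development libraries, with 0 members higher and 5 lower in adult. The neuron list (elav, nSyb, Syt1, brp, ChAT and VAChT) summed to 5533 to 5784 CPM in adult and 3308 to 4439 CPM in development. Of its 6 tested members, 4 were higher and 0 lower in adult. Markers of several other cell types moved with the groups as well. Sums of the Kenyon cell list overlapped, at 1126 to 1295 CPM in adult and 952 to 1465 CPM in development, with 2 of 6 tested members higher in adult. Sums of the fat body list overlapped too, at 34.4 to 47.8 CPM in adult and 35.36 to 50.15 CPM in development, with 2 members higher and 2 lower. The list of other neuron types (GABA, glutamate and amine neurons) summed to 272 to 530 CPM in adult and 52.6 to 85.3 CPM in development, with 5 of its 8 tested members higher in adult. The list of peptidergic cells summed to 104.5 to 162.4 CPM in adult and 28.1 to 30.7 CPM in development, with 6 of 8 tested members higher and Lk under 1 CPM in every library. The glia list summed to 484 to 626 CPM in adult and 305 to 345 CPM in development, with 3 of 7 tested members higher and 3 lower. The higher adult sum rested mostly on Gs2, at 256 to 375 CPM in adult and 44.15 to 61.95 CPM in development. Also higher were alrm, at 20.9 to 32.9 CPM in adult and 3.42 to 11.2 CPM in development, and Gat. Gat had 9.37 to 12.5 CPM in adult and 2.43 to 3.565 CPM in development. In contrast, nrv2 had 179 to 205 CPM in adult and 229 to 251 CPM in development, and moody and wrapper were lower in adult too. The glial master gene repo had 0.81 to 1.34 CPM in adult and 0.75 to 0.93 CPM in development. The olfactory receptor neuron list summed to 23.4 to 37.6 CPM in adult, nearly all of it from the co-receptor gene Orco. In development it summed to 2.11 to 4.46 CPM, with Orco at 0.78 to 2.60 CPM and Ir25a at 0.81 to 1.45 CPM. The 4 odorant receptor genes of the list stayed under 1 CPM throughout. Of the fat body markers, Yp1 had 15.7 to 20.3 CPM and Yp2 17.4 to 22.7 CPM in adult, against at most 0.48 and 0.38 CPM in development, while Lsp2 had at most 0.0610 CPM in adult and 11.7 to 20.03 CPM in development, and Fbp1 at most 5.46 CPM in adult and 22.5 to 31.1 CPM in development. The photoreceptor list summed to 13.1 to 18.9 CPM in adult and 0.21 to 2.63 CPM in development. Its largest part in adult was trp, at 7.02 to 15.7 CPM, and Rh3 and Rh4 stayed under 1 CPM throughout. The hemocyte list summed to 225 to 250.2 CPM in adult and 356 to 492 CPM in development, nearly all of it from Pxn, with srp and NimC1 under 1 CPM throughout. Sums of the muscle list were 1.68 to 2.12 CPM in adult and 5.62 to 7.37 CPM in development, and of the dividing cell list 3.94 to 8.01 CPM in adult and 12.4 to 17.8 CPM in development. PCNA made up most of the dividing cell sums, at 3.30 to 7.13 CPM in adult and 10.9 to 15.1 CPM in development. CycB, polo, dpn and mira stayed under 1 CPM throughout. Whether reads of these lists came from other cells or from the projection neurons themselves was not tested. The part of other cells in the receptor results was not tested either. In sorted bulk samples fewer cells of a type and less RNA per cell cannot be told apart.

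The receptor genes were of low to moderate abundance, and a few of them carried most of the reads. Their summed level was 804 ± 44.1 CPM in adult and 600 ± 31.1 CPM in development libraries (SD, n = 3 each), that is between 0.0569% and 0.0838% of a library. A mean of at least 20 CPM was reached by 7 members in adult and 8 in development, and 28 of the 36 members reached 1 CPM in all 6 libraries. In adult the genes with the most reads, not corrected for length, were Dh44-R1, sNPF-R, TrissinR, AstA-R1 and TkR86C. In development they were CCKLR-17D3, Dh44-R1, sNPF-R, CCKLR-17D1 and TrissinR. The genes Dh44-R1, sNPF-R and TrissinR together held 57.0% to 59.1% of the summed receptor CPM in adult libraries and 31.5% to 37.2% in development libraries.

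**Figure D1:**
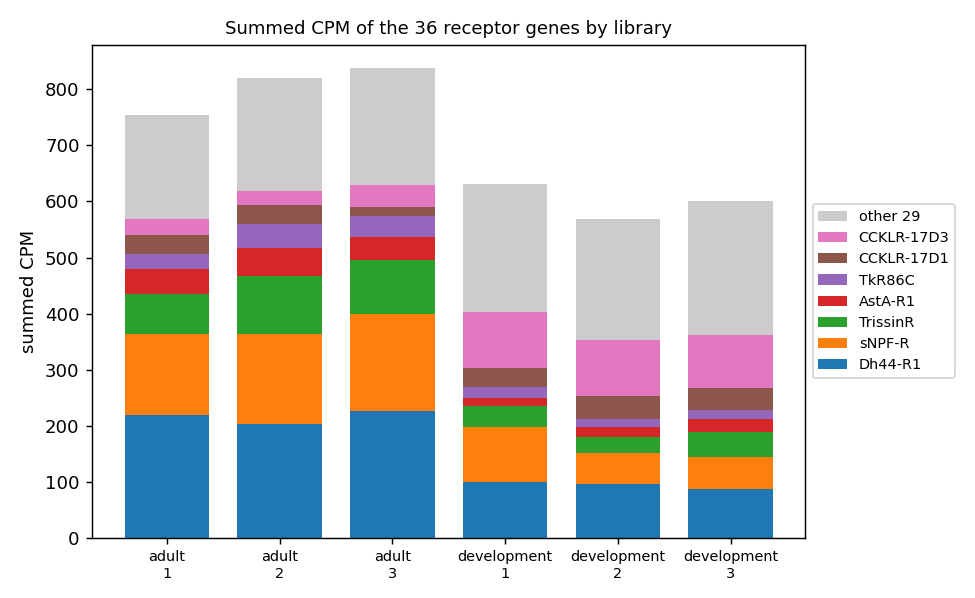
Summed CPM of the 36 receptor genes in each library (bars, in CPM), split into the 7 genes that rank among the 5 most abundant of either group and the other 29. Adult libraries stand at 754 to 838 CPM and development libraries at 569 to 631 CPM, with CCKLR-17D3 the widest band in development and Dh44-R1 the widest in adult.

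The order of genes by level was then taken after division by exon length from the Ensembl annotation of BDGP6.54. In adult, Dh44-R1 came first at 82.0 to 91.5 CPM per kilobase, followed by sNPF-R at 30.3 to 36.4 and TrissinR at 20.01 to 28.6 CPM per kilobase, and these 3 ranges did not overlap. The next, CCKLR-17D3 at 10.8 to 17.3, AstA-R1 at 11.4 to 13.6 and TkR86C at 8.36 to 12.9 CPM per kilobase, overlapped each other. In development, CCKLR-17D3 came first at 42.4 to 44.9 CPM per kilobase and Dh44-R1 second at 34.9 to 40.2, again without overlap. The ranges of sNPF-R (11.6 to 20.6), CCKLR-17D1 (10.9 to 12.8) and TrissinR (8.03 to 12.3 CPM per kilobase) overlapped.

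**Figure D2:**
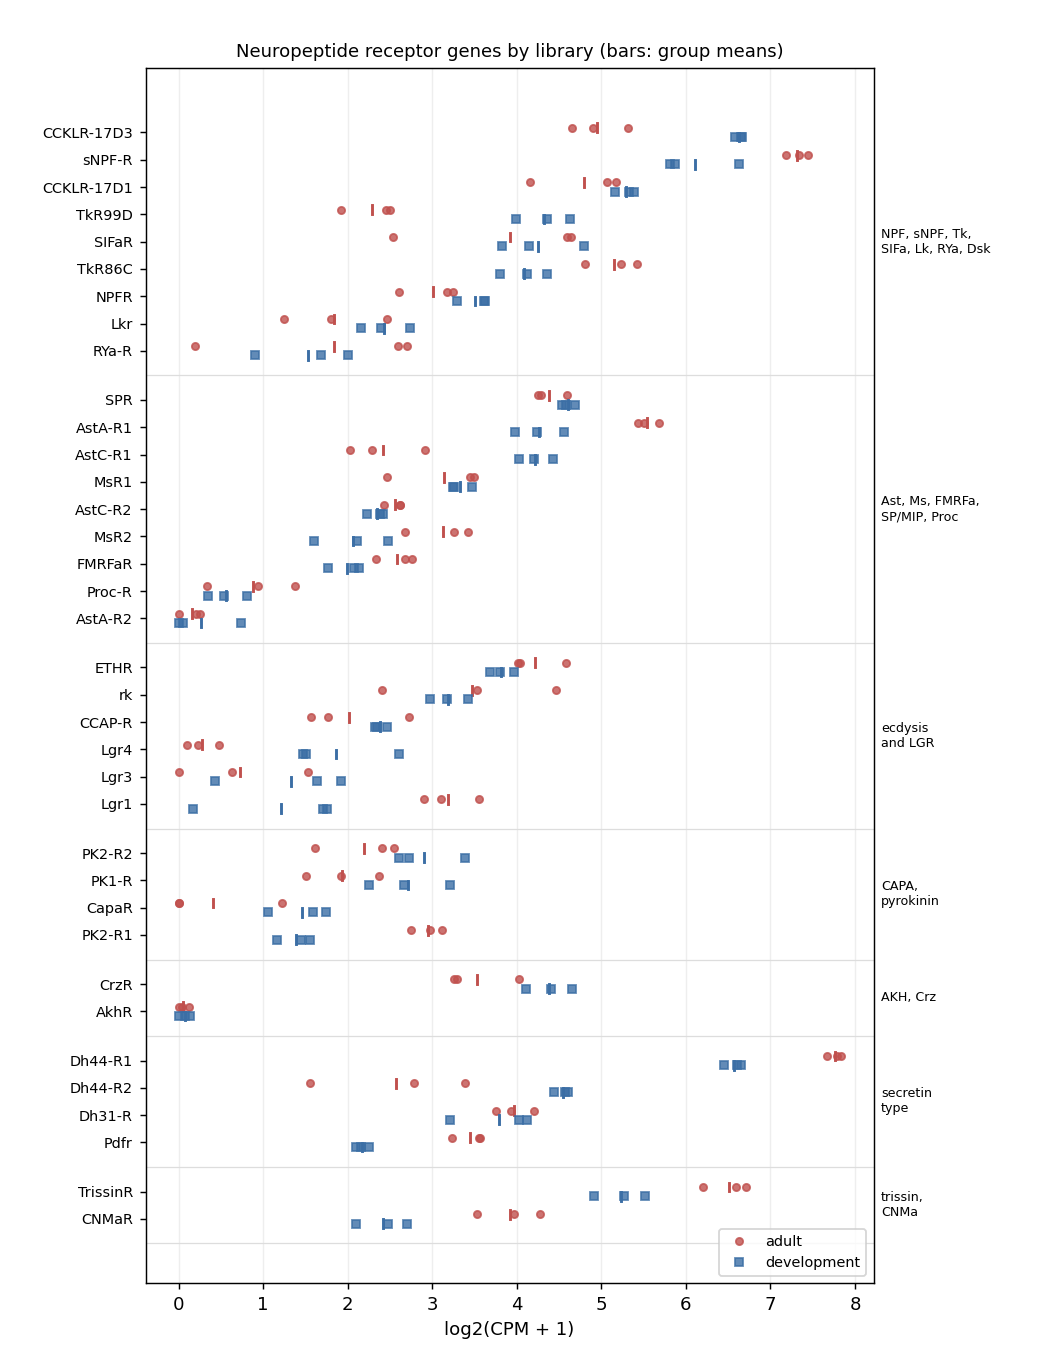
Level of each receptor gene in each library, as log2(CPM + 1), adult circles above development squares, with a bar at each group mean and genes set out by ligand family. CCKLR-17D3, TkR99D, AstC-R1 and Dh44-R2 have all adult points left of the development points, while Dh44-R1, sNPF-R, TrissinR and AstA-R1 have all adult points to the right.

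Receptor genes changed in both directions. Of the 33 members that reached 1 CPM in at least 3 libraries and were tested, 10 were higher and 7 lower in adult than in development (limma on log2(CPM + 1), adjusted p under 0.05 over 8031 genes). The other 16 did not pass. Over all genes tested the share called was 60.2%, with 25.1% higher and 35.1% lower in adult, and the 51.5% of tested members called does not stand above that background. The groups of 3 libraries did not overlap for 21 of the 33 tested members, against 64.9% of all genes tested. The median log2 fold change was -0.19 over the tested members and -0.15 over all genes tested, and median of ratios scaling brought the median of all genes to -0.01. With that scaling 2394 of all genes were higher and 2386 lower in adult, against 2017 and 2815 on the deposited scale, and 11 tested members were higher and 6 lower. Limma voom on recovered reads called 2351 of all genes higher and 2364 lower. No called member changed direction under any alternative run. Sizes of called changes ran from 0.86 to 2.03 on the log2(CPM + 1) scale, which understates the change of low genes, and 16 of the 17 were of at least 1 log2 unit. Calls of at least that size made up 48.5% of the tested members, against 31.1% of all genes tested, a difference that was not tested. With a pseudocount of 5 CPM the sizes were more than 1.5 times smaller for Lgr1 (1.02), Lgr4 (-0.57), MsR2 (0.63), PK2-R1 (0.82), Pdfr (0.82) and CapaR (-0.33), and limma voom on recovered reads gave larger ones for Lgr1 (3.40), Lgr4 (-3.55) and CapaR (-4.71). A member that passes the 1 CPM filter through its higher group alone has to differ, so these counts describe the tested members and not all 36. Among the called members this holds for Lgr4, whose adult libraries were all under 1 CPM.

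**Figure D3:**
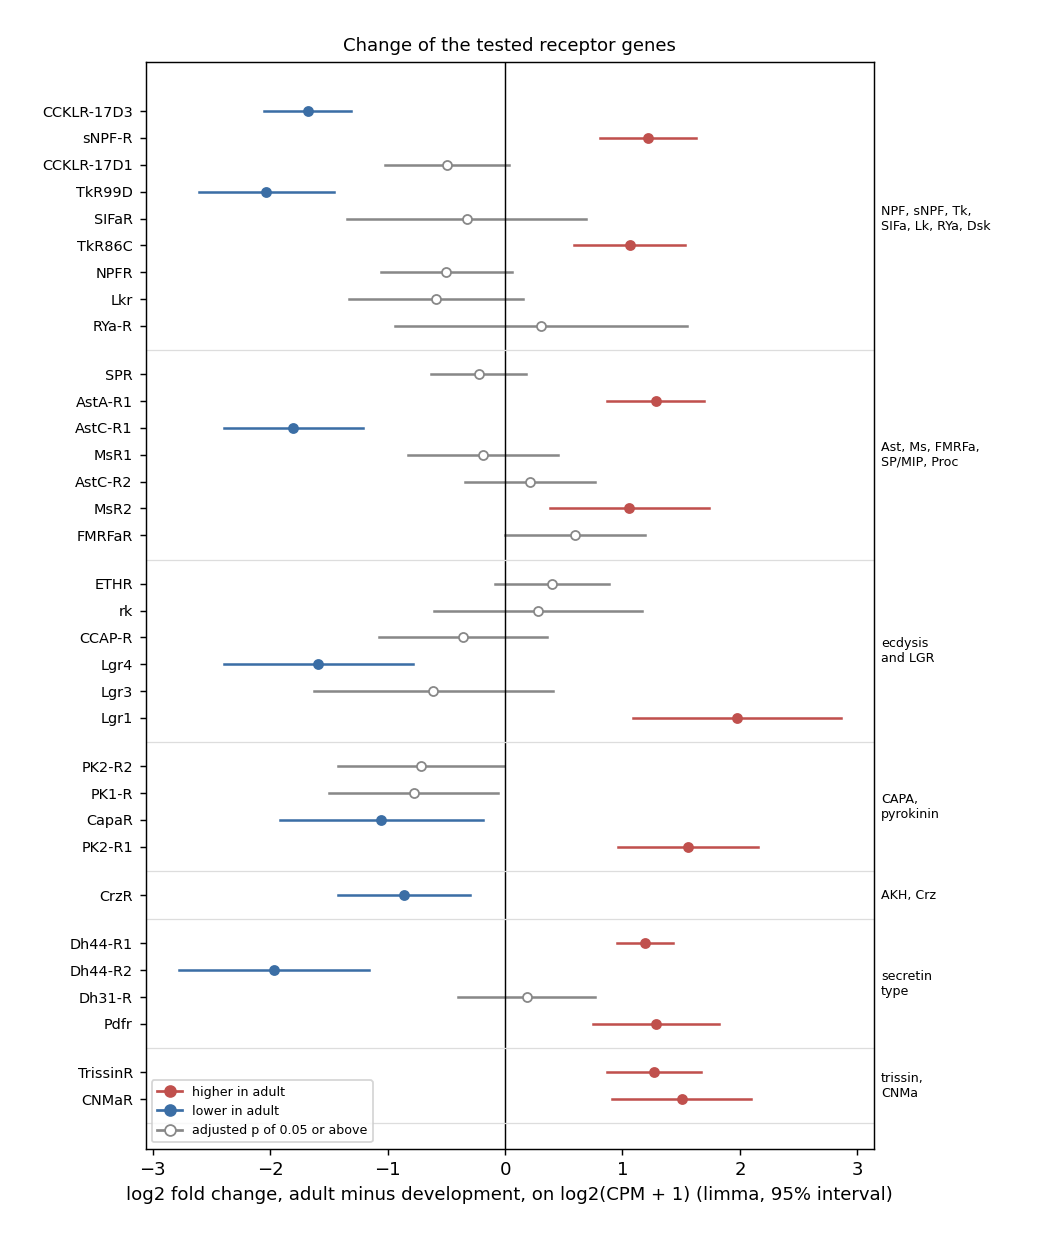
Log2 fold change of the 33 tested receptor genes, adult minus development on log2(CPM + 1), with 95% intervals from limma; filled points passed an adjusted p of 0.05 and open points did not. The 10 filled points right of 0 lie between 1.06 and 1.97, and the 7 left of 0 between -0.86 and -2.03.

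Among receptors for the neuropeptide F, tachykinin, drosulfakinin and related peptides, 2 of 9 tested members rose and 2 fell. That is 44.4% called, against 60.2% of all genes tested, which is the background for the family counts below as well. No family was tested against it. The short neuropeptide F receptor gene sNPF-R (FBgn0036934, 3L, 20058511 to 20089007), known for enhancing olfactory receptor neuron output in hungry flies, had 144, 160.3 and 173 CPM in adult replicates 1, 2 and 3, against 97.5, 55.2 and 57.5 CPM in development. All adult libraries lay above all development ones, with development replicate 1 the highest of its group. The log2 fold change was 1.22 ± 0.19 (SE; limma, adjusted p = 0.000111). It was 1.48 without development replicate 1. The receptor gene NPFR for the longer neuropeptide F, which acts in feeding and reward, had 5.09 to 8.45 CPM in adult and 8.76 to 11.3 CPM in development and did not pass (limma, adjusted p = 0.110).

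The drosulfakinin receptor genes lie close together on the X chromosome, CCKLR-17D3 (FBgn0030954) at 18764483 to 18774027 and CCKLR-17D1 (FBgn0259231) at 18707494 to 18726572. Drosulfakinin is the fly relative of cholecystokinin and acts in satiety. CCKLR-17D3 fell to 28.8, 24.1 and 38.7 CPM in adult, against 99.8, 100.1 and 94.6 CPM in development. With no overlap between groups, it fell by 1.68 ± 0.17 on the log2 scale (SE; limma, adjusted p = 2.46e-06). CCKLR-17D1 had 32.6, 35.0 and 16.8 CPM in adult, against 34.8, 40.9 and 39.1 CPM in development. Adult replicate 3 was the lowest, adult replicate 2 lay among the development libraries, and the gene did not pass (log2 fold change -0.49, 95% interval -1.02 to 0.03; limma, adjusted p = 0.0951). It passed without adult replicate 2 (log2 fold change -0.68, adjusted p = 0.0371).

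The tachykinin-family receptor genes went opposite ways. TkR99D (FBgn0004622, 3R, 29950796 to 29969447), the tachykinin receptor known for presynaptic inhibition of olfactory receptor neurons, had 2.80, 4.64 and 4.48 CPM in adult, against 23.7, 14.9 and 19.4 CPM in development. It fell by 2.03 ± 0.26 on the log2 scale (SE; limma, adjusted p = 2.33e-05), the largest change in size among the called members on log2(CPM + 1). TkR86C (FBgn0004841, 3R, 10737592 to 10751228), a receptor for natalisin, had 27.0, 41.7 and 36.6 CPM in adult, against 19.5, 12.9 and 16.3 CPM in development (log2 fold change 1.06 ± 0.22, SE; limma, adjusted p = 0.000992). Neither gene had overlapping groups.

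The remaining genes of this family did not pass. SIFaR, the SIFamide receptor gene with roles in courtship and feeding, had 4.78, 23.2 and 24.0 CPM in adult, against 16.7, 13.1 and 26.7 CPM in development. Its adult replicate 1 stood far below the others, and the log2 fold change was -0.33 with all libraries and 0.37 without that one. The leucokinin receptor gene Lkr, which acts in water balance and sleep, had 1.37 to 4.52 CPM in adult and 3.47 to 5.65 CPM in development, and passed only in the fit without adult replicate 3 (adjusted p = 0.0333, limma). The RYamide receptor gene RYa-R had 5.05, 5.52 and 0.15 CPM in adult, against 0.87, 3.01 and 2.20 CPM in development, and passed only without that same adult replicate 3 (log2 fold change 1.12; limma, adjusted p = 0.0204).

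Among receptors for allatostatins, myosuppressin, FMRFamide, sex peptide and proctolin, 2 of 7 tested members rose and 1 fell, and 2 further members were not tested. AstA-R1 (FBgn0266429, X, 3574536 to 3666724), a galanin-type receptor for the inhibitory peptide allatostatin A, had 44.3, 50.4 and 42.2 CPM in adult, against 14.7, 17.9 and 22.5 CPM in development. Its log2 fold change was 1.28 ± 0.19 (SE; limma, adjusted p = 7.31e-05). AstA-R2, the other receptor gene for this peptide, had 0.19, 0.15 and 0 CPM in adult, against 0.03, 0.67 and 0 CPM in development. These values rest on 13 adult and 24 development reads, and a library with 0 reads allows up to 0.0738 CPM in adult replicate 3 and 0.161 CPM in development replicate 3, by the 3 reads that a count of 0 allows.

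The allatostatin C receptors are somatostatin-type receptors that dampen cell activity. AstC-R1 (FBgn0036790, 3L, 18560258 to 18576326) had 3.88, 6.56 and 3.07 CPM in adult, against 20.5, 15.2 and 17.4 CPM in development. It fell by 1.80 ± 0.27 on the log2 scale (SE; limma, adjusted p = 9.15e-05), with no overlap. AstC-R2 (FBgn0036789, 3L, 18485137 to 18502557) had 5.14, 4.36 and 5.14 CPM in adult, against 3.69, 4.34 and 4.19 CPM in development. Its groups barely separated and it did not pass (log2 fold change 0.21, 95% interval -0.34 to 0.76; limma, adjusted p = 0.492).

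Myosuppressin, which quiets visceral muscle, has receptor genes MsR1 and MsR2 within one stretch of 3L (MsR2, FBgn0264002, 2282883 to 2300944; MsR1, FBgn0035331, 2322693 to 2345799). MsR2 had 9.76, 8.58 and 5.41 CPM in adult, against 3.31, 4.57 and 2.04 CPM in development (log2 fold change 1.06 ± 0.31, SE; limma, adjusted p = 0.0103). Its groups did not overlap, and the call ended without development replicate 3 (adjusted p = 0.0535). MsR1 had 9.92, 10.3 and 4.52 CPM in adult, against 8.57, 8.45 and 10.1 CPM in development. Its groups overlapped on both sides and it did not pass (log2 fold change -0.19; limma, adjusted p = 0.606), and the value was 0.15 without adult replicate 3.

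FMRFaR, for FMRFamide peptides, had 4.03 to 5.78 CPM in adult and 2.41 to 3.39 CPM in development. These groups did not overlap, yet the gene did not pass (limma, adjusted p = 0.0772). Median of ratios scaling brought it past the threshold at 0.0375. SPR, the receptor for sex peptide and for myoinhibitory peptides, had 18.6 CPM as its adult median and 23.2 CPM as its highest adult value, and 22.1 to 24.8 CPM in development (limma, adjusted p = 0.321). The annotation places frma on the opposite strand over 26.8% of its exonic bases, a gene at 0.09 to 0.27 CPM in adult and 1.12 to 2.58 CPM in development. The proctolin receptor gene Proc-R stayed below the filter, at 0.26 to 1.598 CPM in adult and 0.27 to 0.75 CPM in development.

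The receptors of the ecdysis sequence and the leucine-rich repeat hormone receptors (LGRs) included 1 rise and 1 fall among 6 tested members. Lgr1 (FBgn0016650, 3R, 17725777 to 17733207), the receptor for the glycoprotein hormone GPA2/GPB5, had 6.44, 7.60 and 10.7 CPM in adult, against 0.13, 2.26 and 2.37 CPM in development. Every adult library lay above development, where replicate 1 was far below the others. The log2 fold change was 1.97 ± 0.41 (SE; limma, adjusted p = 0.00102) and fell to 1.46 without development replicate 1. Lgr4 had 0.07, 0.40 and 0.17 CPM in adult, from 23 reads in all, against 1.83, 1.77 and 5.11 CPM in development, from 213 reads. The gene passed the filter through the development libraries alone and so had to differ. Its fitted fall was 1.59 ± 0.37 on the log2 scale (SE; limma, adjusted p = 0.00244), and the ratio of adult to development reads after scaling to depth was 0.0787 (95% interval 0.0488 to 0.121, exact binomial, counting error only). Exons of CG12096 lie opposite 29.2% of the Lgr4 exonic bases, and CG12096 had 38.4 to 49.0 CPM in adult and 51.4 to 62.3 CPM in development. How reads from the shared bases were counted is not in the labels, so the Lgr4 value is uncertain.

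The ecdysis-triggering hormone receptor gene ETHR, which starts the moulting motor program, had 15.2 to 23.0 CPM in adult and 11.8 to 14.6 CPM in development, without overlap and without passing (log2 fold change 0.40, 95% interval -0.09 to 0.89; limma, adjusted p = 0.142). CCAP-R, the receptor for crustacean cardioactive peptide further along that program, had 1.97 to 5.58 CPM in adult and 3.995 to 4.51 CPM in development. The bursicon receptor gene rk, needed for cuticle tanning and wing expansion, had 21.1, 4.30 and 10.6 CPM in adult, against 7.996, 9.73 and 6.83 CPM in development. Adult replicates 1 and 2 stood on either side of the development libraries. The log2 fold change of 0.28 did not pass (limma, adjusted p = 0.576); it was 0.81 without adult replicate 2 (adjusted p = 0.0424) and -0.22 without adult replicate 1. Lgr3, the receptor for the relaxin-like peptide Dilp8, had 1.89, 0.55 and 0 CPM in adult, against 2.12, 0.35 and 2.80 CPM in development, and did not pass (limma, adjusted p = 0.280). CG4730 and a noncoding gene lie opposite 34.5% of the Lgr3 exonic bases, so its value is uncertain too.

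Of the 4 receptors for CAPA and pyrokinin peptides, 1 rose and 1 fell. The pyrokinin 2 receptor genes, whose ligand hugin acts in feeding, are neighbours on 3R (PK2-R2, FBgn0038139, 13329070 to 13334166; PK2-R1, FBgn0038140, 13338330 to 13345106). PK2-R1 had 6.82, 7.69 and 5.73 CPM in adult, against 1.73, 1.94 and 1.24 CPM in development, and it rose by 1.56 ± 0.27 on the log2 scale (SE; limma, adjusted p = 0.000314). PK2-R2 had 4.29, 4.85 and 2.07 CPM in adult, against 5.59, 5.10 and 9.46 CPM in development. Neither gene had overlapping groups, but PK2-R2 did not pass (log2 fold change -0.72, 95% interval -1.42 to -0.01; limma, adjusted p = 0.0757) except without adult replicate 2 (adjusted p = 0.0474).

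PK1-R, for the pyrokinin made from the CAPA precursor, had 1.85 to 4.18 CPM in adult and 3.76 to 8.28 CPM in development (limma, adjusted p = 0.0590). It passed without adult replicate 3 (limma, adjusted p = 0.0270), without development replicate 1 (0.0345) and with quantile normalization (0.0460). CapaR, known for its action in the Malpighian tubules, had 1.33, 0 and 0 CPM in adult, against 2.34, 2.00 and 1.08 CPM in development. Only adult replicate 1 held reads, 56 of them, and lay among the development libraries. The log2 fold change was -1.05 ± 0.40 (SE; limma, adjusted p = 0.0358). This call ended without adult replicate 2 (adjusted p = 0.107) or 3 (0.110) and without development replicate 1 (0.115) or 2 (0.0941).

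The adipokinetic hormone and corazonin receptors are related to the vertebrate GnRH receptor and act in energy and stress responses. CrzR (FBgn0036278, 3L, 12339116 to 12351544) had 8.76, 8.55 and 15.3 CPM in adult, against 24.1, 16.2 and 20.1 CPM in development. The groups did not overlap, and the gene fell by 0.86 ± 0.26 on the log2 scale (SE; limma, adjusted p = 0.0114), a call that ended without development replicate 1 (adjusted p = 0.0565). AkhR, best known from the fat body, had 4 reads over the adult libraries and 4 over the development libraries, or at most 0.0916 CPM in adult and 0.0963 CPM in development, and was not tested.

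Secretin-type receptors, which mostly raise cyclic AMP, included 2 rises and 1 fall among 4 members. Dh44-R1, a receptor for diuretic hormone 44, the fly relative of corticotropin-releasing factor, had 219, 203 and 226 CPM in adult, against 99.6, 96.1 and 86.4 CPM in development. Groups stood far apart, and the gene rose by 1.19 ± 0.11 on the log2 scale (SE; limma, adjusted p = 1.01e-06). Dh44-R2, the other receptor gene for this hormone, had 5.90, 1.92 and 9.42 CPM in adult, against 20.8, 22.8 and 23.3 CPM in development. Adult replicates were spread more widely than development ones, and the gene fell by 1.97 ± 0.37 on the log2 scale (SE; limma, adjusted p = 0.000547).

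Exons of fdl and CG34234 lie opposite 33.2% of the Dh44-R2 exonic bases. The fdl gene had 66.4 to 98.8 CPM in adult and 74.6 to 108 CPM in development. No label says how reads from the shared bases were counted, so the Dh44-R2 level is uncertain. The receptor gene Pdfr for the clock peptide PDF (FBgn0260753, X, 2552206 to 2578640) had 10.8, 8.42 and 10.8 CPM in adult, against 3.28, 3.44 and 3.76 CPM in development. The groups did not overlap and the log2 fold change was 1.28 ± 0.25 (SE; limma, adjusted p = 0.000589). Dh31-R, the calcitonin-type receptor gene, had 12.5 to 17.5 CPM in adult and 8.22 to 16.4 CPM in development and did not pass (limma, adjusted p = 0.575).

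Both remaining receptor genes rose. TrissinR (FBgn0085410, 2L, 5824004 to 5856767), the receptor for the cysteine-rich peptide trissin, had 72.8, 104.1 and 95.8 CPM in adult, against 37.6, 29.2 and 44.9 CPM in development. Its log2 fold change was 1.27 ± 0.18 (SE; limma, adjusted p = 6.05e-05). CNMaR (FBgn0053696, 3L, 9644109 to 9659433), the CNMamide receptor gene, had 10.6, 18.4 and 14.6 CPM in adult, against 3.28, 4.55 and 5.48 CPM in development, a rise of 1.503 ± 0.27 on the log2 scale (SE; limma, adjusted p = 0.000407). Neither gene had overlapping groups.

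Pairs of receptors for one peptide family had different read ratios in adult and development libraries, though with 3 libraries a group no pair could pass a threshold of 0.05. For 7 pairs, the log2 ratio of the first to the second member, each with a pseudocount of 1 CPM, was computed in every library. The scaling between libraries nearly cancels in such a ratio where both members are well above the pseudocount. Lengths were not divided out, so the ratios serve only to compare the groups. In all 7 pairs, each of which holds at least 1 called member, the adult ratios lay wholly to one side of the development ratios, and in each pair the two-sided exact permutation p was 0.1, the smallest that 3 against 3 libraries allow, and 0.1 after Benjamini-Hochberg adjustment over the 7 pairs. Groups of single genes did not overlap in 64.9% of genes tested, and no share over other gene pairs was computed. Both members were called, in opposite directions, in 2 pairs, and 1 member was called in the other 5.

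The widest shifts were in the pairs called on both sides. The log2 ratio of Dh44-R1 to Dh44-R2 was 5.19 ± 0.85 in adult and 2.03 ± 0.18 in development (SD, n = 3 each), a difference of 3.16. The ratio of TkR86C to TkR99D was 2.86 ± 0.07 in adult and -0.23 ± 0.04 in development, a difference of 3.09. TkR86C thus made up 89.8% of the CPM of its pair in adult, against 45.6% in development. Dh44-R1 made up 97.4% of its pair in adult and 80.8% in development, with the limit on the Dh44-R2 level given above.

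In 2 more pairs the ratio shifted by over 2 log2 units. PK2-R1 over PK2-R2 had a log2 ratio of 0.76 ± 0.33 in adult and -1.52 ± 0.62 in development (SD, n = 3 each), a difference of 2.27. AstC-R1 over AstC-R2 had -0.14 ± 0.57 in adult and 1.87 ± 0.30 in development, a difference of -2.02. AstC-R1 held 48.0% of the CPM of the pair in adult, against 81.3% in development.

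In the drosulfakinin pair, CCKLR-17D1 over CCKLR-17D3 had a log2 ratio of 0.17, 0.52 and -1.15 in adult, against -1.50, -1.27 and -1.25 in development. Adult replicate 3 lay close to the development libraries, and the difference of 1.19 became 1.69 without it. MsR1 over MsR2 had 0.01 ± 0.23 in adult and 1.26 ± 0.56 in development (SD, n = 3 each). AstA-R1 over AstA-R2 had 5.39 ± 0.12 in adult and 3.996 ± 0.53 in development, with AstA-R2 near 0 in both groups, so that this ratio follows the AstA-R1 level and its scaling, and is no measure of balance.

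**Figure D4:**
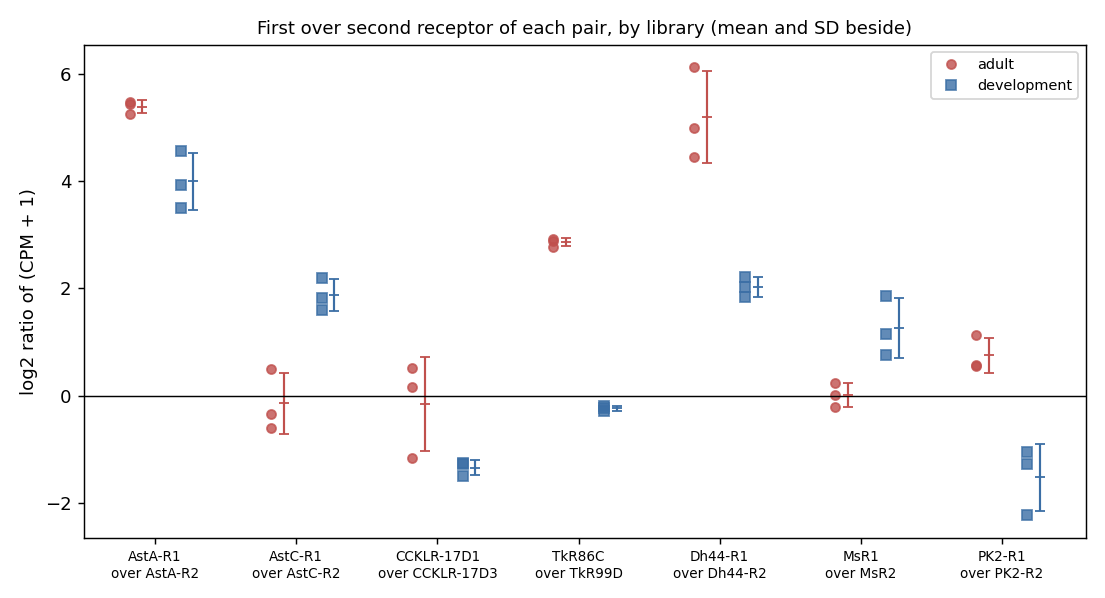
Log2 ratio of the first to the second receptor gene of 7 pairs, from CPM + 1, in each adult library (circles, left) and each development library (squares, right), with mean and SD beside the points. In all 7 pairs the groups do not overlap. They stand furthest apart for Dh44-R1 over Dh44-R2 and TkR86C over TkR99D, and barely separate for CCKLR-17D1 over CCKLR-17D3.

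Precursor genes of the ligands were higher in adult in 14 of 20 tested cases and lower in 0 (limma). That is 70% called, against 60.2% of all genes tested (25.1% higher and 35.1% lower). At an unadjusted p under 0.05, 14 of these precursors were higher and 1 lower, and limma voom on recovered reads called 13 higher and 0 lower. The median log2 fold change of these 20 genes was 1.77. Another 8 of the 31 listed precursors did not reach 1 CPM in 3 libraries, and 3 were not matched by name. Of the 8, Gpa2 had 28.1 CPM in adult replicate 2, from 920 reads, and 0 in every other library. FMRFa reached 4.06 CPM in adult replicate 3. The peptidergic list above shares Pdf, Crz, Dsk, Hug, SIFa, Lk, Ms and AstA with these precursors, so its sum is not a separate measure. Among the 14, Tk, Pdf, Crz and Trissin had every development library under 1 CPM, passed the filter through adult alone and so had to differ.

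Proc, the proctolin precursor gene, had 149.5 ± 29.2 CPM in adult and 8.03 ± 2.63 CPM in development (SD, n = 3 each), beside a receptor gene Proc-R of under 2 CPM in every library. Mip, for myoinhibitory peptides, had 8.98, 3.72 and 194 CPM in adult, against 2.06, 0.09 and 0.86 CPM in development, with adult replicate 3 far above the rest. Its log2 fold change was 3.51 with all libraries (limma, adjusted p = 0.00824) and 1.90 without that one (0.00444), and it did not pass by limma voom (0.208) or without the filter (0.101). Dh44 had 41.6 ± 5.11 CPM in adult and 2.84 ± 1.10 CPM in development, and so rose with Dh44-R1 while Dh44-R2 fell. These 3 had the largest log2 fold changes of the list on log2(CPM + 1) with all libraries. With a pseudocount of 0.25 CPM Pdf (4.68) and Crz (4.65) came first, and so they did by limma voom on recovered reads, with Crz at 7.42 and Pdf at 7.28.

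Other ligand genes stood in varied relation to their receptors. Dsk, the drosulfakinin gene, had 14.8 ± 6.17 CPM in adult and 0.72 ± 0.34 CPM in development (SD, n = 3 each; limma, adjusted p = 2.48e-06), while CCKLR-17D3 fell. Tk, the tachykinin gene, had 5.51 ± 1.09 CPM in adult and 0.79 ± 0.12 CPM in development, while TkR99D fell. AstC had 11.2 to 45.9 CPM in adult, against 0.996 to 3.33 CPM in development, with adult replicate 2 highest (log2 fold change 2.82, and 2.22 without it). Crz had 8.58 ± 1.82 CPM in adult and 0.14 ± 0.24 CPM in development, while AstC-R1 and CrzR fell. The short neuropeptide F gene sNPF had 5.58 ± 0.85 CPM in adult and 1.36 ± 0.67 CPM in development, and Trissin had 4.41 ± 2.69 CPM in adult and 0.58 ± 0.37 CPM in development. Pdf had 3.53, 33.1 and 6.17 CPM in adult, against 0.51, 0 and 0 CPM in development, again with adult replicate 2 highest (log2 fold change 3.17, and 2.31 without it). The receptor genes sNPF-R, TrissinR and Pdfr rose too. The called rises also took in Dh31, Ms, Capa and Hug, with log2 fold changes of 1.28, 2.41, 1.56 and 1.87. The precursor genes AstA, AstCC, NPF, Gpb5, SIFa and Akh did not pass. SIFa had 2.27, 17.6 and 10.7 CPM in adult, lowest in the replicate where SIFaR was lowest, against 9.47, 11.4 and 10.4 CPM in development.

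Receptors of peptides and protein hormones outside the 36 numbered 7, of which 5 were tested, and 1 rose and 3 fell. That is 80% called, against 60.2% of all genes tested. Alk, the receptor tyrosine kinase for jelly belly, had 259 ± 14.5 CPM in adult and 149.9 ± 13.0 CPM in development (SD, n = 3 each; limma, adjusted p = 3.38e-05). The insulin receptor gene InR fell by 1.35 on the log2 scale, the secretin-type receptor gene hec by 1.34 and the CCHamide-2 receptor gene CCHa2-R by 0.83 (limma). The CCHa2-R call ended without development replicate 1 (adjusted p = 0.0563).

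Genes for the signalling machinery behind the receptors were called about as often as genes at large, though more of them were higher than lower in adult. Of 29 tested genes for G protein subunits, their effectors and desensitisation, 14 were higher and 4 lower in adult (limma), with a median log2 fold change of 0.32. That is 62.1% called, against 60.2% of all genes tested (25.1% higher and 35.1% lower), and with median of ratios scaling 17 were higher and 4 lower. The difference in direction from all genes was not tested. Epac, a cyclic AMP-regulated exchange factor, had 553 ± 84.2 CPM in adult and 95.1 ± 28.0 CPM in development (SD, n = 3 each). The adenylyl cyclase gene Ac13E had 15.4 ± 3.01 CPM in adult and 3.53 ± 0.82 CPM in development. The phospholipase C gene norpA had 922 ± 12.7 CPM in adult and 281 ± 8.68 CPM in development. The highest adjusted p of these 3 was 4.50e-05 (limma).

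The falls took in 3 G protein subunit genes. Gbeta13F, a beta subunit gene, had 810 ± 28.8 CPM in adult and 2162 ± 289 CPM in development (SD, n = 3 each). The alpha subunit genes cta and Galphai fell by 1.22 and 1.13 on the log2 scale (limma, adjusted p = 4.31e-05 and 0.00529).

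Genes for peptide processing and dense-core vesicles were higher in adult in 9 of 16 tested cases and lower in 0 (limma; 9 and 0 at an unadjusted p under 0.05, and 10 and 0 by limma voom on recovered reads). That is 56.25% called, against 60.2% of all genes tested (25.1% higher and 35.1% lower). Pal2, which acts in peptide amidation, had 2309 ± 101 CPM in adult and 259 ± 8.87 CPM in development (SD, n = 3 each). IA-2, whose protein sits in the membrane of dense-core vesicles, had a log2 fold change of 4.18. The vesicle protein gene Sytalpha, a synaptotagmin, had 18.7 ± 1.41 CPM in adult and 1.42 ± 0.50 CPM in development (SD, n = 3 each).

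Spread between libraries set a limit on several receptors. Replicates of one group would have a chi-square over its degrees of freedom near 1 under counting noise alone. For a given relative spread this measure grows with the number of reads, so it does not rank spread between genes of unlike level. SIFaR had 285 in adult and 64.4 in development by this measure, rk 217 and 6.61, and CCKLR-17D1 135 and 8.44, in the same order of groups. The called genes sNPF-R, at 54.7 and 238, and TrissinR, at 114 and 43.8, also ranged high, as did RYa-R at 100 and 18.6. The highest adult library stood at 37.4 times the lowest for RYa-R and at 2.08 times for CCKLR-17D1. AstC-R2, at 1.43 in adult and 0.893 in development, was near counting noise.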

How the data were processed

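The deposited table gives 1 log2 value per gene and library, which the values show to be log2(CPM + 1). Per the submitters' processing notes, STAR 2.4.2a and HTSeq 0.7.1 were used; their roles, and the build, annotation and strand setting, are in no source used here. Groups and replicate numbers come from the titles. The 1 row with no symbol took at most 8.6e-05% of a library and was left out. Low CPM values were multiples of 1 read's worth, and 100% of values above 0 came out as whole reads within 0.1 read. Genes at 1 CPM or more in at least 3 of 6 libraries were tested with limma 3.58.1 in R 4.3.3 (trend, two-sided, group as the only term) on log2(CPM + 1), with Benjamini-Hochberg adjustment over all 8031 genes and a threshold of 0.05. The code was tested on simulated data. Ratios of receptor pairs were compared by exact permutation (SciPy 1.17.1). Intervals and floors cover counting error only, since reads carry no molecular identifiers. Full values are given for members called at 1 log2 unit or more, for the 5 most abundant and for pairs; of other lists up to 3 rises and 3 falls, and the detected ligand genes. Members and lists were chosen with earlier results of these data known. Itpr and epac were read under the table's symbols Itp-r83A and Epac. Coordinates and exon lengths are those of BDGP6.54 (Ensembl), matched by symbol for all 36 members. Alternatives covered pseudocount, filter, scaling, replicate block, limma voom and leaving out each library.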

Additional observations from a re-analysis of the deposited data

How the results depend on the processing

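Across 14 alternatives, 14 of the 17 called receptor genes kept their call under every alternative that tested them, and the other 3, CapaR, CrzR and MsR2, lost it under at least 1. Without an expression filter the adjusted p was 0.0850 for CapaR, 0.0602 for CrzR and 0.0754 for MsR2, and for CapaR it was 0.0599 with a pseudocount of 5 and 0.0512 with median of ratios scaling (limma; the cause was not tested). Higher receptor genes numbered 9 to 11 and lower ones 6 to 8 when each library was left out. With a 5 CPM filter 9 ligand precursor genes were higher, since fewer genes were then tested. Leaving out single libraries gave 0 to 1 lower ligand precursor genes and 0 to 1 lower processing genes. The replicate numbers only name libraries: same-numbered libraries had correlations of deviations of -0.0291, 0.0108 and -0.0213. With the replicate block, 10 receptor genes were higher and 8 lower, PK1-R being called (limma, adjusted p = 0.0358), and 2 ligand precursor genes were lower, against 0 without it. Values that changed sign belonged to genes not called in either fit. RYa-R had -0.068 by limma voom on recovered reads and -0.13 to 1.12 with a library left out. With a library left out, Dh31-R ran from -0.11 to 0.35, MsR1 from -0.37 to 0.15, SIFaR from -0.69 to 0.37 rk from -0.22 to 0.81, Akh from -1.60 to 0.021 and SIFa from -0.88 to 0.37. Differences in the log2 ratios of the 7 pairs kept their sign under every alternative run for them. Depth limits AkhR, AstA-R2, Proc-R, CapaR, Lgr3 and Lgr4 most, with 8 to 236 reads in all.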
